A study of Mus musculus with 4 samples.

Results

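The constitutive proteasome genes were followed at the RNA level in primary cultured astrocytes of the mouse. The set was every protein-coding gene whose symbol starts with Psma, Psmb, Psmc, Psmd, Psme, Psmf or Psmg followed by a number, apart from the inducible core subunits Psmb8, Psmb9 and Psmb10. This rule found 47 of the 55487 genes counted. Of these, 46 encode parts of the proteasome or factors that act on it: 16 core subunits (8 alpha and 8 beta), 9 subunits of the base, 8 of the lid, 5 activators, and 8 assembly factors and inhibitors. The remaining gene, Psmc3ip, matches by its name only: it encodes a partner of the meiotic recombinases and is no subunit, so it was kept out of every count of members. Of the 46 members, 45 averaged at least 1 CPM (read counts put on a common scale of sequencing depth) and were compared. The exception was Psmb11.

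The proteasome is the barrel-shaped protease that degrades proteins tagged with ubiquitin. Its core is a stack of rings: the outer rings of alpha subunits gate the entry, and the inner rings of beta subunits hold the active sites, carried by Psmb5, Psmb6 and Psmb7. A regulatory particle caps the core; its base has a ring of ATPases (Psmc1 to Psmc6) that unfolds the substrate, and its lid removes the ubiquitin chain through Psmd14. Other caps (the Psme proteins) open the core without ubiquitin, and dedicated chaperones assemble the rings. Cells under interferon replace the active beta subunits by Psmb8, Psmb9 and Psmb10. Transcription of the subunits is known to be raised together by the factor Nfe2l1, which binds antioxidant response elements when proteasome activity is short.

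The study had 4 libraries of post-confluent cultures, 1 for each combination of a genotype label (OASIS wild type or OASIS deficient) and a treatment label. OASIS is the membrane-bound transcription factor encoded by Creb3l1. The treated cultures had 1 µg/ml doxorubicin, a drug that breaks DNA, for 1 h and were collected 24 h after the medium was replaced, and the others had no drug. The allele behind the deficiency, the strain, the age of the animals and the number of animals behind a culture were not stated by the labels. Sets of 4 values are listed in the order untreated wild type, treated wild type, untreated deficient, treated deficient. Total counts ran from 17481188 to 22559613. With 1 library per group, ratios between libraries have no replicate check, and the intervals given with them are 95% exact conditional binomial intervals that cover counting error only. Reads were amplified without molecular identifiers, so these intervals are lower limits of the error.

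The labels were checked first. Creb3l1 had 966 and 636 counts in the wild-type libraries, untreated and doxorubicin, and 260 and 235 in the deficient ones, so it was lower with the deficient label but was not absent. Xist had at most 1 count in both untreated libraries and 2547 and 2742 in both doxorubicin libraries, and 4 Y-linked genes had no count in the latter. Cdkn1a, the p21 gene that DNA damage is known to induce through p53, was at 1296 and 1495 CPM in wild type and at 186 and 198 in deficient. Its ratio of treated over untreated was thus 1.15 and 1.07, so the treatment label has no check by a large response of this gene. The treatment label and the sex of the culture cannot be told apart. The culture state moved with genotype: the summed level of 8 mitosis genes was 44.5 and 53.6 CPM in wild type against 686 and 1003 in deficient, and that of 8 astrocyte markers was 3516 and 3306 CPM against 10440 and 9187. Gfap held most of the astrocyte rise, at 1140 and 1120 CPM in wild type and 6589 and 5168 in deficient. Untreated, 7 of the 8 astrocyte markers were higher in deficient and Gja1 was lower (348 CPM in wild type, 316 in deficient). With doxorubicin all 8 were higher. The summed level of 7 oligodendrocyte-lineage markers was 295 and 206 CPM in wild type against 771 and 792 in deficient, and that of 5 neuron markers was 39.6 and 26.9 against 112 and 102. Tubb3 made up most of the neuron sum, at 39.3 and 22.8 CPM in wild type and 103 and 84.6 in deficient. With doxorubicin, Rbfox3 and Syt1 were lower in deficient and the other neuron markers higher. Mog, Dcx and Snap25 were at 0 in both wild-type libraries and Cldn5 and Tek in both deficient ones. The 6 microglia markers summed to between 195 and 291 CPM and the 5 fibroblast markers to between 162 and 286, while the 4 endothelial markers summed to 3.56 CPM at most. The part of these shifts in the genotype differences below was not tested. In such bulk RNA, a change in the share of cells of a type and a change in the RNA per cell cannot be told apart.

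The sequence letters bound by Nfe2l1 and Nfe2l2, its relative, were looked for because both factors are known to drive proteasome genes. Promoter windows of RefSeq (build GRCm38.p6, 250 bases before to 50 after a transcription start) were matched for 39 of the 47 genes. The core of the antioxidant response element, TGACNNNGC on either strand, was present in 6 of the 39 (15.4%), against 14.0% of the 27025 genes with a window. The 6 matches are printed on the strand of the gene, with the motif in capitals. They lie before the starts of Psmb5, Psmb6, Psmc6, Psmd9 and Psmd12, and across that of Psme4, where the motif begins at base -7. The beta ring, base, lid, activators and chaperones thus each have at least 1, and the 7 alpha genes with a window have none.
Psmb5, chr14:54618029-54618047, minus strand: agttgTGACGTCGCggcgt
Psmb6, chr11:70525343-70525361, plus strand: gagagTGACGGAGCgcttt
Psmc6, chr14:45329592-45329610, plus strand: cagtaGCTAAGTCAggcat
Psmd9, chr5:123228154-123228172, plus strand: gccggTGACCCCGCccact
Psmd12, chr11:107479278-107479294, plus strand: tctGCTGTGTCAcattt
Psme4, chr11:30771763-30771781, plus strand: cggctGCAGCGTCAccaga

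The motif begins at base -9 from the start of Psmb6 and at base -47 from that of Psmb5, both active-site genes. In Psmc6, Psmd12 and Psme4 the motif reads on the opposite strand. The CCAAT box, CCAAT on either strand, was present in 14 of the 39 (35.9%) against 41.1% of all genes with a window, 5 of them among the 7 alpha genes. No window held overlapping matches of both motifs. Both shares lie close to those of promoters in general, and the groups are too small for their counts to be read as a pattern. A match is a description of letters, not of binding. Genes with neither motif are common, since the element was found in 6 of the 39 and the CCAAT box in 14. Among them are Psmc4 and Psmc5, whose RNA was higher in deficient cultures, and Psmd5 and Psmf1, whose RNA was lower. A link between the motifs and genotype was not tested. Upstream stretches of Psmc4 (bases -159 to -10 from its start) and Psmc5 (-105 to -32), neighbours in the ATPase ring, are given as examples with neither motif.
Psmc4, chr7:28050102-28050251, minus strand: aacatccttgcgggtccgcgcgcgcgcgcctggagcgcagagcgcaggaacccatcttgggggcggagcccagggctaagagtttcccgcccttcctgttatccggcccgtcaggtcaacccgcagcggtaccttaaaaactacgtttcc
Psmc5, chr11:106256080-106256153, plus strand: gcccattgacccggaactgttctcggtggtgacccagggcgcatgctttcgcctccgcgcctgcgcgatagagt

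The cultures expressed every subunit of the standard core, base and lid, and in mean TPM over the libraries the 4 highest members were beta subunits, although in each library Psma6 or Psma7 was among the top 4. In TPM (the deposited transcript share, scaled by transcript length and library), Psmb6, the subunit with the caspase-like site, was at 584, 668, 609 and 666 in the 4 libraries. Psmb5, which carries the chymotrypsin-like site, was at 438, 402, 411 and 457 TPM. Psmb7, which carries the trypsin-like site, was at 147, 168, 143 and 164 TPM and was the lowest of the 7 expressed beta genes in every library. The structural beta subunits Psmb3 and Psmb2 had means of 493 and 460 TPM. Within a library, the highest beta gene was between 3.97 and 4.26 times the lowest, although the complex holds its beta subunits in equal copies.

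The base spanned means from 89.3 TPM for the ATPase Psmc6 to 283 TPM for the ATPase Psmc3. The lid spanned 95.3 TPM for Psmd3 to 293 TPM for Psmd8. Apart from Psma8, the alpha ring spanned 147 TPM for Psma2 to 425 TPM for Psma7. The chaperones and the inhibitor spanned 38.6 TPM for Psmg1 to 94.3 TPM for Psmd5, so their upper end overlapped the base, where Psmc6 was at 89.3 TPM. Among activators, Psme2, a subunit of the PA28 cap, was at 180 TPM and Psme4, the large PA200 activator, at 16.0. The testis subunit Psma8 had a mean of 1.63 TPM. Psmb11, the active subunit of the thymus proteasome, had no count in 3 libraries and 11 counts in deficient with doxorubicin, or 0.556 CPM, where a count of 0 allows 0.131 to 0.174 CPM.

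The order per length depends on which transcript length is used. When CPM was divided by the merged exon length instead, Psmb5 ranked 1 and Psmb6 ranked 4, while Psmb3 moved from rank 2 to rank 14 and Psma7 from 5 to 15. The ratio of the core median to the base median changed from 1.16 in TPM to 0.807 on that scale, so no order between core and base is given. Psme2 and Psme2b are near-identical copies that share reads, and their split is uncertain. Counts of 12 of the 47 genes carried fractions of more than 0.1 in at least 1 library, such as reads shared between genes can give.

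**Figure D1:**
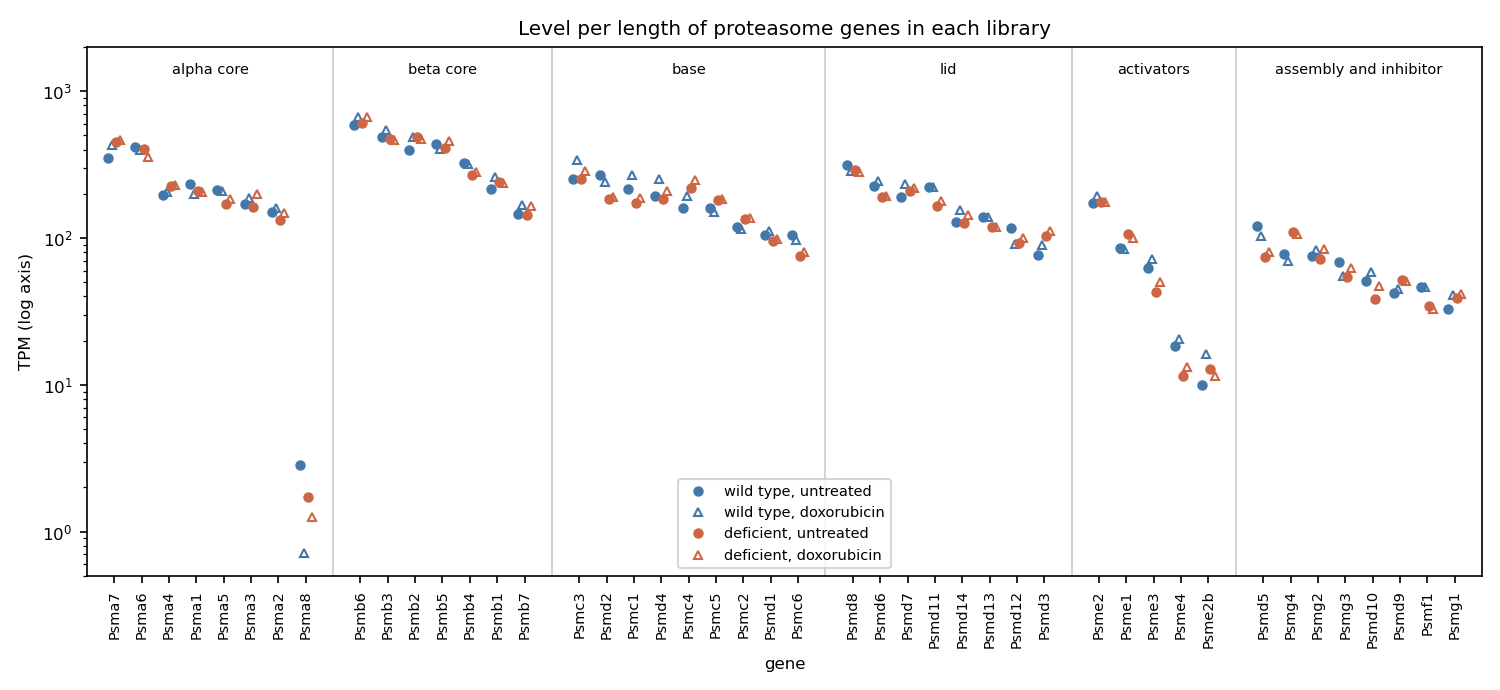
TPM (log axis) of the 45 constitutive proteasome members in each of the 4 libraries, grouped by place in the complex; colour gives the genotype label and symbol the treatment label. The 4 points of most genes sit close together, from Psmb6 at 584 to 668 TPM down to Psme2b, and Psma8 stands far below all others.

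Across all pairs of libraries that share a label, the members varied little. Of the 45, 39 stayed within 1.5-fold in all 4 pairs: 7 of 8 alpha, 7 of 7 beta, 8 of 9 base, 7 of 8 lid, 4 of 5 activator and 6 of 8 assembly or inhibitor genes. The same held for 39.0% of all 15596 genes tested. Most members are abundant, and among genes that averaged 20 CPM or more the share was 55.8%, against 39 of 42 members. The 6 members outside were Psma8, Psmc4, Psmd3, Psme2b, Psmf1 and Psmg4. Leaving out 1 library, so that fewer pairs remained, gave 40 to 42 members inside. No member differed by 2-fold in any pair on the log2(CPM + 1) scale, which understates the change of low genes such as Psma8.

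The first comparison asks how the proteasome genes differ between cultures labelled OASIS deficient and wild type. In the genotype test, 3 members rose in deficient cultures, the base ATPases Psmc4 and Psmc5 and the lid subunit Psmd3, and 2 fell, the base chaperone Psmd5 and the core inhibitor Psmf1. No alpha, beta or activator gene passed. The test was edgeR's quasi-likelihood test over all 4 libraries with treatment as a covariate, with Benjamini-Hochberg adjustment over all 15596 genes, and 12.9% of all genes passed as higher and 10.9% as lower. The members' 3 and 2 of 45 lie below both shares, and 12 of the 45 (26.7%) had an unadjusted p under 0.05, against 34.6% of all genes. The fit has 1 residual degree of freedom, so its p-values rest on very little replication and see only how these 4 libraries vary.

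Psmc4 (ENSMUSG00000030603.16, GRCm38 chromosome 7, 28041707 to 28050101, minus strand) encodes the ATPase Rpt3. It was at 139 and 173 CPM in wild type and at 213 and 240 CPM in deficient. Both deficient libraries lay above both wild-type ones, by 1.54-fold untreated (1.46 to 1.61) and 1.39-fold with doxorubicin (1.33 to 1.45). By edgeR's quasi-likelihood test the log2 difference was 0.54 with a standard error of 0.132 and an adjusted p of 0.00452, the smallest among the members.

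Psmd3 (ENSMUSG00000017221.14, chromosome 11, 98682554 to 98695979, plus strand) encodes a structural subunit of the lid. Its levels were 111 and 136 CPM in wild type and 174 and 182 in deficient, untreated and doxorubicin. The groups did not overlap, with ratios of 1.56 untreated (1.48 to 1.65) and 1.34 with doxorubicin (1.27 to 1.40), and edgeR's adjusted p was 0.00878. Psmc5 (ENSMUSG00000020708.12, chromosome 11, 106256154 to 106263120, plus strand) encodes the ATPase Rpt6. It had 132 and 130 CPM in wild type and 170 in each deficient library, so both ratios were close, 1.30 and 1.31. Its adjusted p by edgeR was 0.0485, and the call was lost when all genes with a count entered (0.086), without treatment in the model (0.052) and in DESeq2 (0.0697).

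Psmf1 (ENSMUSG00000032869.15, chromosome 2, 151715812 to 151744186, minus strand) encodes PI31, which binds the core and inhibits it in vitro. Its levels were 76.4 and 94.2 CPM in wild type and 57.5 and 56.0 in deficient, a ratio of 0.753 untreated (0.694 to 0.816) and 0.594 with doxorubicin (0.552 to 0.639). In CPM, the lower ratio with doxorubicin came with a higher wild-type value in that library. In TPM the wild-type values were alike, 46.0 and 46.4, against 34.5 and 32.9 in deficient. Its adjusted p by edgeR was 0.0196, and the call was lost when all genes with a count entered (0.0544) and in DESeq2 (0.0529). Psmd5 (ENSMUSG00000026869.12, chromosome 2, 34849734 to 34874968, minus strand) encodes a chaperone that holds base ATPases before the cap is complete. It had 255 and 233 CPM in wild type and 177 and 198 in deficient. The ratio was 0.692 untreated and 0.851 with doxorubicin, and edgeR's adjusted p was 0.0379. Its call was lost when all genes with a count entered (0.0824) and without treatment in the model (0.051). Psmc4 and Psmd3 passed under every one of the 6 alternative fits, and the direction of all 5 genes was the same in TPM.

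In CPM, the members moved in both directions, as genes in general did. Both deficient libraries lay above both wild-type libraries for 15 of the 45 members and below them for 10, where 31.2% and 30.8% of all genes did so. Those above included Psma4, Psma7, Psmb2, Psmb5, Psmc2 and Psmd7, and those below Psma5, Psmc1, Psmc6, Psmd2, Psmd6 and Psmd11. Psma8 is also counted above, but it met the minimum mean only through the deficient libraries. In TPM the wild-type and deficient values of Psmb2, Psmb5 and Psmd7 overlapped. The base held 3 members of each kind, the lid 2 and 2, and the activators 2 and 2. The ATPases of the single base ring thus had log2 ratios from -0.20 for Psmc6 to 0.62 for Psmc4 untreated, and from -0.39 for Psmc1 to 0.47 for Psmc4 with doxorubicin.

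By size, 4 members were at least 1.5-fold higher in deficient without treatment (Psma8, Psmc4, Psmd3 and Psmg4) and none lower, where 19.6% of all genes were higher and 21.1% lower. With doxorubicin, 2 were higher (Psma8 and Psmg4) and 1 lower (Psmf1), against 20.7% and 18.9% of all genes. Psma8 was at 0.452 and 0.524 CPM in wild type and at 1.68 and 1.42 in deficient. It met the minimum mean of 1 CPM only through the deficient libraries, so its place in both counts follows in part from that minimum. The standard deviation of the members' log2 ratios was 0.32 untreated and 0.28 with doxorubicin, against 0.75 and 0.76 over all genes averaging 20 CPM or more. The median log2 ratio of the members was 0.14 untreated and 0.02 with doxorubicin, beside -0.03 and 0.02 over all genes. In TPM the untreated median of the members turned to -0.07, with that of all genes at -0.21. The difference between members and all genes was 0.17 in CPM and 0.13 in TPM.

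**Figure D2:**
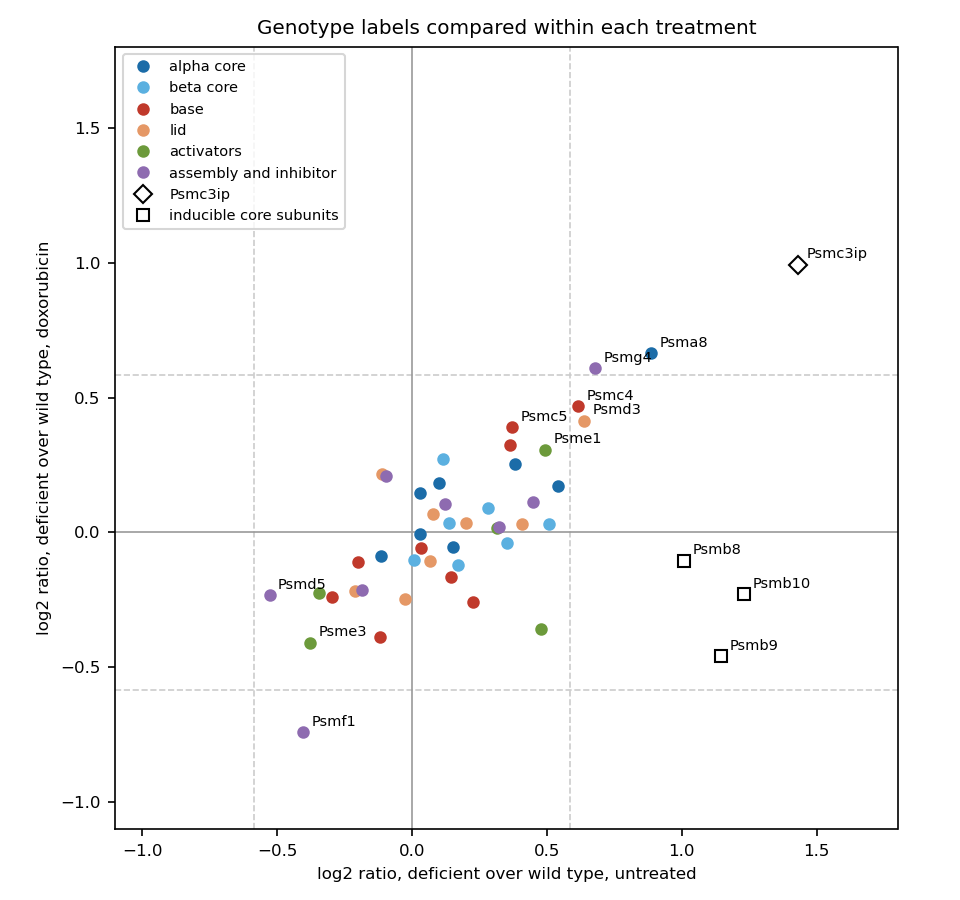
Log2 ratio of deficient over wild type on the log2(CPM + 1) scale, untreated (x axis) against doxorubicin (y axis), 1 point per gene, coloured by place in the complex; dashed lines mark 1.5-fold. Most members lie inside the lines on both axes. Psma8, Psmg4, Psmc4 and Psmd3 lie beyond the right line. Psmf1 lies beyond the lower line on the y axis only, and Psmd5 lies left of 0 but inside the lines. The inducible subunits lie far right and slightly below 0 on the y axis. In TPM, Psma8 and other members with smaller ratios change side on the x axis.

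In the alpha ring, Psma7 came closest to the threshold, with 167 and 220 CPM in wild type and 243 and 248 in deficient (edgeR adjusted p 0.0642), and it passed in 3 of the 6 alternative fits. Psma5 had the lowest alpha ratios, with 160 and 164 CPM in wild type and 148 and 154 in deficient, log2 ratios of -0.11 and -0.09. The testis subunit Psma8 had 9 and 12 counts in wild type and 29 and 28 in deficient, a ratio of 3.73 untreated (1.72 to 8.95) and 2.70 with doxorubicin (1.33 to 5.83), and its adjusted p by edgeR was 0.37. Its untreated log2 ratio was 0.89 in CPM and -0.50 in TPM, so no direction is given for it.

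In the beta ring, all 3 active-site genes lay within 1.5-fold. Psmb5 was at 209 and 203 CPM in wild type and 226 and 245 in deficient, ratios of 1.08 (1.04 to 1.13) and 1.21 (1.16 to 1.26). In TPM its untreated level was lower in deficient (411) than in wild type (438). Psmb6 was at 222 and 271 CPM against 271 and 288, and Psmb7 at 104 and 125 against 114 and 128, so their groups touched or overlapped. The adjusted p by edgeR was 0.31 for Psmb5, 0.328 for Psmb6 and 0.736 for Psmb7. Psmb2, a structural beta subunit, had the highest beta ratio untreated (1.43, against 1.02 with doxorubicin): 176 CPM in wild type untreated against 229, 250 and 234 in the other libraries, so untreated wild type stood below the other 3. Psmb4, another structural subunit, was at 183 and 194 CPM against 184 and 181 and had the lowest mean ratio of the ring.

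In the base and lid, the lowest mean ratios belonged to Psmd2 and Psmd11, and neither passed edgeR's test. Psmd2, the base scaffold that binds ubiquitin-like domains, had 536 and 511 CPM in wild type and 437 and 433 in deficient, ratios of 0.814 and 0.847 (edgeR adjusted p 0.0978), and it passed in limma-voom (adjusted p 0.0495). Psmd11, a lid subunit, had 228 and 240 CPM against 197 and 206, ratios of 0.864 and 0.860 (edgeR adjusted p 0.25). The lid deubiquitinase Psmd14 had log2 ratios of 0.20 and 0.03.

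Among the activators, no gene passed edgeR's test, and Psme3 and Psme1 had ratios on opposite sides of 1. Psme3, which forms the nuclear PA28 cap, was at 116 and 138 CPM in wild type and 88.8 and 104 in deficient, ratios of 0.767 and 0.751 (edgeR adjusted p 0.0545). Psme1, of the interferon-responsive PA28 cap, was at 54.0 and 55.9 CPM against 76.5 and 69.4, ratios of 1.42 and 1.24 (edgeR adjusted p 0.11). Neither pair of groups overlapped. Psme2, the partner of Psme1 in that cap, had ratios of 1.25 and 1.01. Psme3 did pass in 3 of the 6 alternative fits. Among the chaperones, Psmg4, which helps the alpha ring to assemble, had 270 and 310 counts in wild type and 384 and 419 in deficient, ratios of 1.65 (1.40 to 1.93) and 1.56 (1.35 to 1.82), with an edgeR adjusted p of 0.135. Psmc3ip, which is no subunit, was at 6.98 and 9.91 CPM against 20.5 and 20.7, and it rose in deficient cultures by 1.31 on the log2 scale (edgeR adjusted p 0.0113).

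The second comparison asks how the proteasome genes differ between libraries labelled doxorubicin and untreated. No member passed the treatment test of edgeR, with genotype as a covariate, and 2 of the 45 (4.44%), Psmc3 and Psmd4, had an unadjusted p under 0.05, against 5.69% of all genes. Of all genes, 0.0256% passed as higher and 0.192% as lower. No member passed in limma-voom or DESeq2 either. In wild type, 1 member, Psme2b, was at least 1.5-fold higher with doxorubicin and none lower, where 11.0% of all genes were higher and 13.6% lower. In deficient cultures, no member was past 1.5-fold in either direction, against 6.59% and 6.75% of all genes.

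No response of the 45 tested members reached 2-fold in either genotype on the log2(CPM + 1) scale. Psmc3, the ATPase Rpt5, was at 237 CPM in wild type untreated and 348 in wild type with doxorubicin, a ratio of 1.47 (1.42 to 1.52). In deficient it was at 277 and 291, a ratio of 1.05 (1.01 to 1.09). Psmd4, the ubiquitin receptor of the base, went from 161 to 219 CPM in wild type and from 178 to 195 in deficient. Psme2b went from 85 to 168 counts in wild type, a ratio of 1.72 (1.32 to 2.26), and had 109 counts in each deficient library. It is the copy that shares reads with Psme2. The standard deviation of the members' log2 ratios was 0.20 in wild type and 0.11 in deficient, against 0.38 and 0.28 over genes with a mean of at least 20 CPM.

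Sex of the culture goes with the treatment label here, and so did the microglia markers, which summed to 291 and 265 CPM without doxorubicin and to 197 and 195 with it; their part was not tested. Psmd10, the chaperone gankyrin and the X-linked member, was at 42.5 and 37.2 CPM untreated and at 51.3 and 44.1 with doxorubicin, ratios of 1.21 and 1.18, and did not pass.

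The median log2 ratio of the members was 0.12 in wild type, with 33 above 0 and 12 below, beside -0.0033 over all genes. In deficient it was 0.03, with 24 above and 21 below, beside 0.03 over all genes. In CPM, wild type untreated was the lowest of the 4 libraries for 24 of the 45 members, while it was lowest for 27.2% of all genes. Each other library was lowest for 7 members. In TPM, untreated wild type was below untreated deficient for only 16 of the 45 members, so it was lowest for at most 16. This library enters the untreated genotype ratio and the wild-type response, so both of the medians that lie above those of all genes contain it. Its part in them was not tested.

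**Figure D3:**
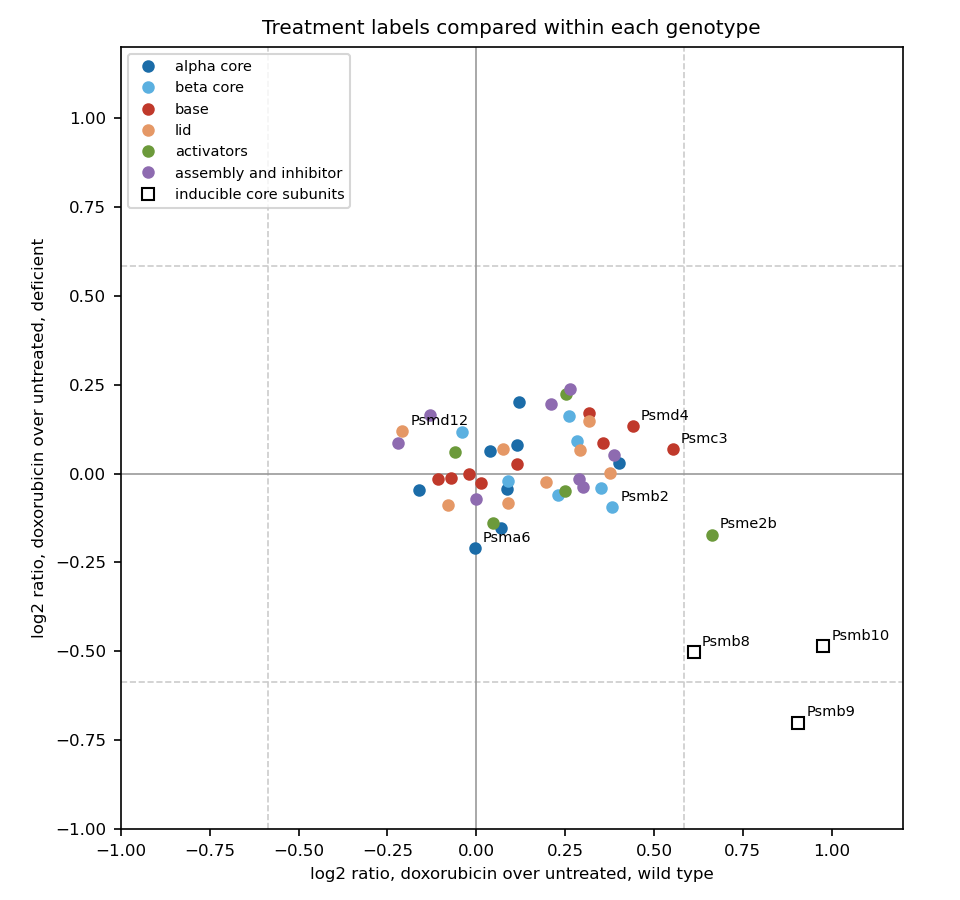
Log2 ratio of doxorubicin over untreated on the log2(CPM + 1) scale, wild type (x axis) against deficient (y axis), 1 point per gene, coloured by place in the complex; dashed lines mark 1.5-fold. Constitutive members spread from -0.22 to 0.66 in wild type and from -0.21 to 0.24 in deficient, and the 3 inducible subunits lie at the lower right.

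The doxorubicin response in deficient less that in wild type has no test with 1 library per group. Its median over the 45 members was -0.13, with 34 below 0, beside 0.02 over all genes. In TPM it was -0.0014, beside 0.10 over all genes. Psmb2 had a log2 response of 0.38 in wild type and -0.09 in deficient, and the lid subunit Psmd12 had -0.21 and 0.12. Responses of opposite sign, with both counting intervals away from 1, were found in 4 of the 45 members, against 16.8% of all genes and 19.7% of those averaging 20 CPM or more.

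The inducible active-site subunits, which are not members, stood apart from their constitutive counterparts. Psmb8, the inducible form of Psmb5, was at 20.2, 31.4, 41.7 and 29.2 CPM. Psmb10, the inducible form of Psmb7, was at 19.7, 39.8, 47.7 and 33.8 CPM, and Psmb9, the inducible form of Psmb6, at 3.97, 8.30, 9.99 and 5.76. All 3 were lowest in wild type untreated and highest in deficient untreated. Their log2 ratio of deficient over wild type was between 1.01 and 1.23 untreated and between -0.46 and -0.10 with doxorubicin, and none passed either additive test. Over the same libraries, the constitutive Psmb5, Psmb6 and Psmb7 had log2 ratios between 0.04 and 0.28.

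Relative to their counterparts in TPM, Psmb8 was at 8.03, 13.0, 14.1 and 9.90% of Psmb5. Psmb9 was at 0.769, 1.49, 1.99 and 1.06% of Psmb6, and Psmb10 at 28.6, 39.6, 64.4 and 36.3% of Psmb7. In every library the constitutive form was thus the more abundant transcript. The difference of responses was -1.11 for Psmb8, -1.61 for Psmb9 and -1.46 for Psmb10 on the log2 scale and was not tested.

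**Figure D4:**
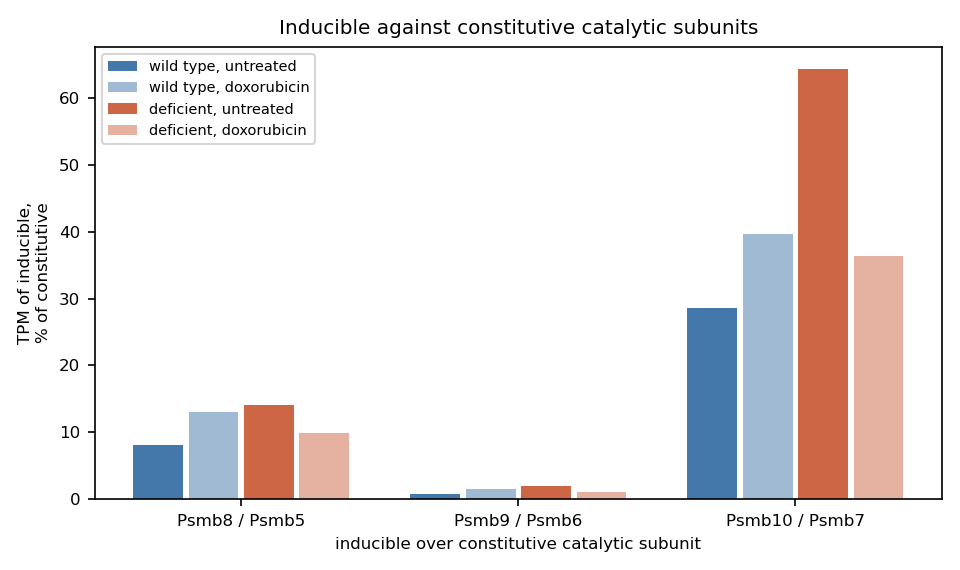
TPM of each inducible active-site subunit as a percent of its constitutive counterpart, 1 bar per library; there are no replicates and hence no error bars. In each pair the untreated wild-type bar is the lowest and the untreated deficient bar the highest, up to 64.4% for Psmb10 over Psmb7.

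Other genes of the pathway, 31 tested genes from a list of associated factors, gave 2 that rose and 6 that fell with genotype in edgeR's test, against the shares of 12.9% and 10.9% above, and none with treatment. The subunit Sem1 rose (108 and 123 CPM in wild type, 161 and 155 in deficient), while Adrm1, the other subunit with a name of its own, did not pass. Uchl5, the deubiquitinase that sits on the base, rose from 20.4 and 19.0 CPM in wild type to 39.5 and 40.1 in deficient, log2 difference 1.02 with an edgeR adjusted p of 0.00465.

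Those that fell included Txnl1, a redox protein bound to the regulatory particle, with 227 and 220 CPM in wild type and 143 in each deficient library (edgeR adjusted p 0.001). Ddi2, the protease that releases Nfe2l1, fell from 63.0 and 54.0 CPM to 31.7 and 30.5 (edgeR adjusted p 0.00287). Nfe2l1 itself had 229 and 205 CPM against 166 and 174 and did not pass (edgeR adjusted p 0.0588). Uba1, the main enzyme that activates ubiquitin, fell from 474 and 451 CPM to 338 and 321 (edgeR adjusted p 0.00384). Zfand5, which stimulates the proteasome, fell from 174 and 168 CPM to 117 and 118 (edgeR adjusted p 0.00615), and Nploc4 and Ubqln4, which deliver substrates, were the others that fell.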

How the data were processed

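The authors deposited 1 table per library with estimated counts and TPM values per gene, per the file headers. Per the submitters' processing notes, DRAGEN was used and the build was GRCm38. Its version, the annotation and the read filters were not given in the sources used here. Libraries were made with a kit, SMART-Seq v4 per the labels' protocols, that does not mark strand, so overlapping genes on opposite strands share reads. Estimated counts were rounded to whole numbers, scaled to CPM with TMM factors (0.98 to 1.02) and compared as log2(CPM + 1) among the 15596 genes with a mean of at least 1 CPM. Deposited TPM was used for levels per length and as an alternative scale. Identifiers were matched without version to a GENCODE annotation of GRCm38 (55227 of 55487).

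Genotype and treatment effects were tested in additive models with edgeR 4.0.16 in R 4.3.3 (quasi-likelihood test, Benjamini-Hochberg adjusted p of at most 0.05), with a common dispersion of 0.0859, 19.1 prior and 1 residual degree of freedom, and the fit was tested on simulated data. The alternatives were DESeq2 1.42.0, limma-voom (limma 3.58.1), other scalings, pseudocounts and minimum levels, and, added after seeing the data, leaving out each library and the count of members within 1.5-fold in all pairs.

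The members, lists, tests and alternatives were chosen with earlier results of these data known. Named genes were the active-site subunits, the highest and lowest mean genotype ratio in each group, every member past 2-fold, past an adjusted p of 0.05 or under 1 CPM, and up to 8 associated genes by the same rules; others named were chosen after their values were seen. Paaf1 had no match among the symbols used, and a few listed genes are not reported here. The libraries are 1 per group, and nothing says that they came from separate animals.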

Additional observations from a re-analysis of the deposited data

Results flagged for a closer look

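For 9 genes the doxorubicin ratio lay above 1 in one genotype and below 1 in the other, with both counting intervals away from 1. Of them, 4 are among the 45 members, a smaller share than the 16.8% of all genes tested that met the same rule. The others come from the 31 associated genes tested. The difference of the responses, deficient minus wild type on the log2 scale, was not tested in any of them, since each group has 1 library. Among constitutive subunits and chaperones, the difference was -0.48 for Psmb2 and -0.17 for Psmd13. In CPM, both were higher with doxorubicin in wild type and lower in deficient. It was 0.30 for Psmd5 and 0.33 for Psmd12, which went the other way. In TPM both directions of Psmd13 turned, from 140 to 138 in wild type and from 118 to 120 in deficient. The inducible subunits had the widest differences of the 9, -1.11 for Psmb8, -1.61 for Psmb9 and -1.46 for Psmb10. Among associated genes, the difference was -0.48 for the core assembly factor Pomp and 0.26 for the deubiquitinase Usp14. In CPM, Pomp and Psmb2 were both lowest in untreated wild type. Pomp was at 168, 219, 211 and 198 CPM and Psmb2 at 176, 229, 250 and 234 in untreated and treated wild type and untreated and treated deficient cultures. In TPM, Pomp was lowest in treated deficient (235), beside 238 in untreated wild type.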

How the results depend on the processing

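In TPM the median of the members was -0.073 for deficient over wild type untreated, -0.094 with doxorubicin and -0.0014 for the difference of responses. Of single ratios of named genes at least 1.5-fold in size, Psma8 untreated reversed in TPM (-0.50). Smaller ratios also changed side in TPM, such as those of Psmb5 (438 TPM in untreated wild type, 411 in untreated deficient) and Psmb7 (147 and 143). The counts past 1.5-fold rest on few genes. In CPM, Psma8, Psme2b and Psmg4 averaged under 20 CPM, while Psmc4, Psmd3 and Psmf1 were more abundant. In TPM, Psmc4 (161 in untreated wild type, 218 in untreated deficient) and Psmd3 (76.2 and 104) stayed within 1.5-fold. For deficient over wild type untreated, the count higher was 0 in TPM, 2 with a pseudocount of 5 CPM and 2 with a minimum of 20 CPM, and the count lower was 2 in TPM. With doxorubicin, the count higher was 1 with total counts, 1 in TPM, 0 with a pseudocount of 5 CPM, 1 with a minimum of 5 CPM and 0 with a minimum of 20 CPM. The member lower with doxorubicin was Psmf1 in CPM but Psme4 in TPM (20.5 TPM in wild type, 13.3 in deficient). For the response in wild type, the count lower was 1 in TPM, and the count higher was 0 with a pseudocount of 5 CPM and 0 with a minimum of 20 CPM. For the response in deficient, the count higher was 1 without a minimum, where Psmb11 enters. For the difference of responses, the count higher was 1 in TPM and 1 without a minimum, and the count lower was 0 with a pseudocount of 5 CPM and 0 with a minimum of 20 CPM. The genotype test called 8 members with DESeq2 size factors (5 higher), 2 without a minimum (0 lower), 3 without treatment in the model (1 lower), 9 with limma-voom (5 higher and 4 lower) and 3 with DESeq2 (1 lower). The treatment test called 34 of all genes, and 78 with DESeq2 size factors, 12 without a minimum, 92 with a minimum of 5 CPM, 0 without genotype in the model and 70 with limma-voom. Members within 1.5-fold in all pairs ranged from 40 to 42 when 1 library was left out. Leaving out a library removes its pairs, which can only keep or raise this count. A larger pseudocount likewise makes ratios smaller. The cause of the other shifts was not tested. Additive fits without a library were not run, as they leave no residual degree of freedom. No paired analysis was possible because the numbers in the sample titles follow the treatment and each group has 1 library.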
